A study of Mus musculus with 18 samples.

Results

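Free CL656, a cyclic dinucleotide agonist of STING that the study calls CDN2, was injected into B16F10 tumors at 20 µg, either once or again 3 days later. The comparison of 2 doses with 1 dose rests on 4 of the 18 tumors of the series, assigned to their groups by their labels alone, with 2 tumors taken 24 h after a single injection and 2 taken 24 h after the last of 2 injections. They are called first-dose tumors and second-dose tumors here, and the numbers 1 and 2 are those of the labels. B16F10 is a melanoma cell line from C57BL/6 mice, and the tumors grew under the skin of the right flank of C57BL/6 mice, which were bought as young females. RNA came from whole tumors, so every value mixes tumor, immune, vessel and surrounding cells. PBS at 2 doses against 1 dose, with 2 tumors each, was set beside it as background, because the 2-dose tumors had received another injection and were taken later. Where a closer treatment is needed, exoCL656 is used, which is the same agonist at 0.1 µg loaded into extracellular vesicles (EVs). According to the study, the EVs came from HEK293 cells, a human kidney line, engineered to overexpress the surface glycoprotein PTGFRN. ExoCL656 was given to 2 tumors on each schedule. The labels do not say whether each tumor came from its own mouse, so p-values measure the spread between these tumors.

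STING is an adaptor of the endoplasmic reticulum that binds cyclic dinucleotides and passes the signal to the kinase TBK1 and the transcription factors IRF3 and NF-κB. IRF3 turns on interferon beta, which acts on many cell types through the type I interferon receptor to induce interferon-stimulated genes. NF-κB turns on inflammatory cytokines and chemokines, which draw neutrophils, monocytes and lymphocytes into a tissue. The pathway is known to damp itself after activation, among other ways by degradation of STING.

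Total expected counts were 21608895 in second-dose tumor 1 and 39144700 in second-dose tumor 2, and lay between 39179959 and 48388504 in the other 6 tumors given CL656 or PBS. Levels are given as CPM, the counts of a gene scaled to a common library size with edgeR's TMM factors. The second-dose tumors differed from each other by more than 2-fold at 4595 of 16927 tested genes (27.15%), against 651 (3.846%) to 1800 (10.63%) in the other groups of the series. Their log2 CPM correlated with r = 0.949 across genes, which are not independent replicates, against 0.979 to 0.9929 in the other groups. Mitochondrial genes took 3.44% and 5.121% of their counts, against 3.333% and 3.313% in the first-dose tumors. Of the 2444 genes that rose, 2069 (84.7%) were higher in second-dose tumor 1 than in tumor 2, so each result below is given tumor by tumor. Melanocyte markers were high in all 4 tumors, with Tyrp1 between 1701 and 7648 CPM.

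Markers of the tissue around a tumor moved with the number of doses. The 20 genes of a skeletal muscle list summed to 155 and 435 CPM in first-dose tumors 1 and 2 and to 7746 and 4100.5 CPM in second-dose tumors 1 and 2, against 151 and 249 CPM after 1 dose of PBS and 329.6 and 546 CPM after 2. The 20 genes of a keratinocyte list summed to 17.4 and 7.38 CPM and then 77.7 and 9.99 CPM with CL656, while PBS went from 260.0 and 148 CPM to 3.18 and 2.81 CPM. Of these 8 tumors, muscle RNA was thus highest in the second-dose tumors, and skin RNA in the PBS tumors after 1 dose. The part of either in the results below was not tested.

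Between 1 and 2 doses of CL656, 3521 of the 16927 tested genes (20.8%) were changed, of which 2444 (14.4%) rose and 1077 (6.36%) fell. A gene was called changed at a Benjamini-Hochberg adjusted p under 0.05 by edgeR's quasi-likelihood test and a ratio over 2. With PBS, the same test called 186 genes (1.1%), with 8 higher (0.0473%) and 178 lower (1.05%), so nearly all of the background ran downward. This smaller count was 85 and 374 without PBS second-dose tumors 2 and 1, and 125 and 110 without PBS first-dose tumors 1 and 2. Over all genes the median log2 change was -0.00245 with CL656 and 0.00921 with PBS. Of the 178 genes that fell with PBS, 61 were on the lists of interferon-stimulated genes, interferon gamma targets or MHC class I presentation used here. Among those 178 genes, 29 rose, 30 fell and 119 were not called with CL656.

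The CPM of the first- and second-dose tumors did not overlap for 3491 of the 3521 called genes, against 10459 (61.8%) of all tested genes. No exact permutation of 2 first-dose and 2 second-dose tumors reaches a two-sided p under 0.333, so the calls rest on the spread shared over 16 tumors of 8 groups. A fit of the 4 tumors alone called 629 genes, 564 higher and 65 lower, with edgeR and 2331 with DESeq2. The count was 1968 without first-dose tumor 1, 2145 without second-dose tumor 1 and 6054 without second-dose tumor 2, and 51.5%, 53.5% and 91.4% of the 3521 genes stayed called the same way in these fits. A call that ended in any of them is named as such below. The share of all genes called moved in these fits too, so list counts from them cannot be set against the shares over all 16 tumors. For 286 of the genes that rose, both first-dose tumors were at 3 counts or fewer, and for 45 of those that fell, both second-dose tumors were, so no fold is given for them.

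**Figure D1:**
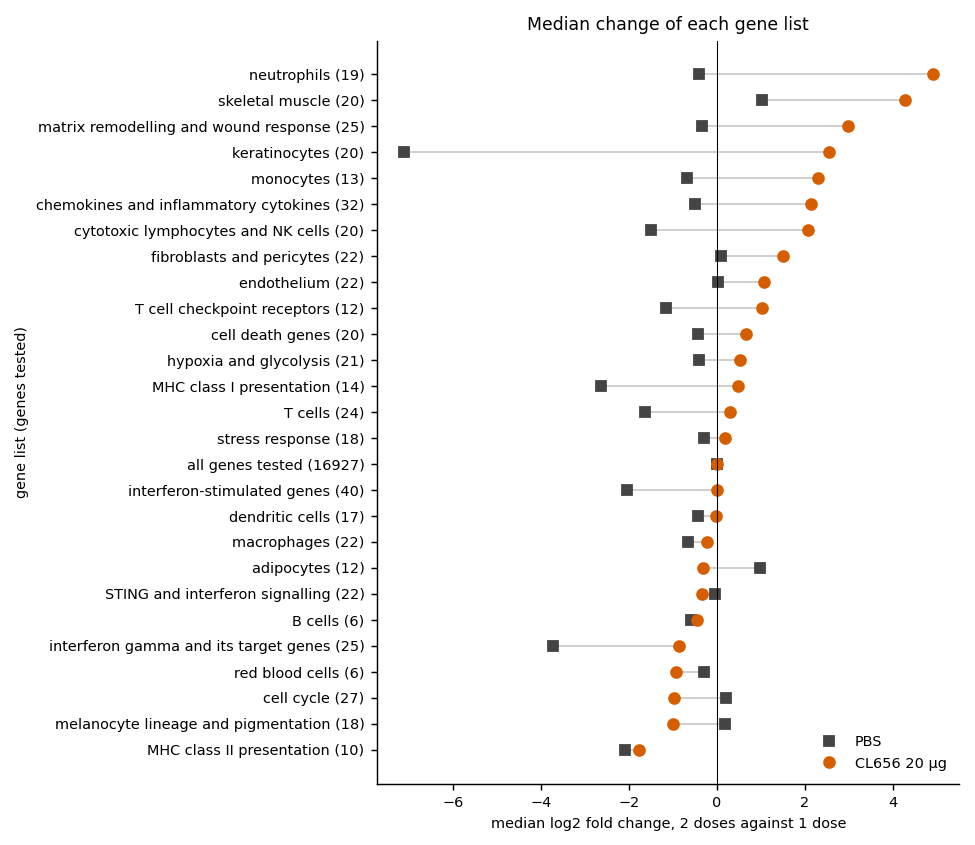
Median log2 fold change of 2 doses against 1 dose (x axis) for 26 gene lists and for all tested genes (rows, with the number of genes tested), with CL656 20 µg as orange circles and PBS as dark squares. Neutrophil (4.91), skeletal muscle (4.28) and matrix remodelling (2.98) genes had the highest medians with CL656, while interferon-stimulated genes lay at -0.0044 with CL656 and at -2.04 with PBS.

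Interferon beta RNA was lower after the second dose, and the genes downstream of it went in both directions. Ifnb1, which encodes interferon beta, stood at 14 and 54.9 CPM in the first-dose tumors and at 10.5 and 1.07 CPM in the second-dose tumors, against 0.133 and 0.12 CPM after 1 dose of PBS and no counts after 2. Both second-dose values lay below both first-dose values, though tumor 1 of each group was close to the other. The log2 change was -2.63 (SE 0.84, edgeR adjusted p = 0.032), and it was -1.37 and not called without first-dose tumor 2 and -5.01 without second-dose tumor 1. Of the 22 tested genes of STING and interferon signalling, which hold the sensor, its kinases, the interferon receptors and their JAK kinases, Ifnb1 was the only one called against 6.36% of all genes called lower. Which of the 22 were called changed with the tumor left out. Their median log2 change was -0.34, and between -0.324 and -0.215 when any one tumor given CL656 was left out. Tmem173, which encodes STING itself, stood at 77.4 and 84.2 CPM and then at 73.1 and 89.7 CPM, so the groups overlapped. Its log2 change was 0.01 (SE 0.15, edgeR adjusted p = 0.96).

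Of the 40 interferon-stimulated genes, 10 fell, 7 rose and 23 were not called between 1 and 2 doses of CL656 (25% lower and 17.5% higher, against 6.36% and 14.4% of all genes), with a median log2 change of -0.0044. With PBS, 30 of the 40 fell and none rose, at a median of -2.04. Their summed level was 16392 and 22108 CPM in the first-dose tumors and 14355 and 14939 CPM in the second-dose tumors. After PBS it was 2469 and 2485 CPM at 1 dose and 798.5 and 701 CPM at 2. The summed level in every tumor given CL656 was thus above that in every PBS tumor. In whole tumors fewer cells of a type and less RNA per cell cannot be told apart.

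The genes that fell included sensors and effectors against viral RNA. Ifit1, which binds foreign RNA lacking a host cap, stood at 942 and 1631 CPM after 1 dose and at 147 and 240.5 CPM after 2, a log2 change of -2.73 (SE 0.50, edgeR adjusted p = 0.0022). Ifih1, the RNA sensor MDA5, went from 329 and 413 CPM to 87.7 and 120.2 CPM (log2 change -1.83, SE 0.28, edgeR adjusted p = 0.0011). Both genes had every second-dose tumor below every first-dose tumor and above every PBS tumor. Cmpk2, a mitochondrial nucleotide kinase, went from 1303 and 1701 CPM to 457 and 418 CPM (log2 change -1.78, SE 0.27). Ifit2, a relative of Ifit1, went from 1504 and 2363 CPM to 584 and 562 CPM (log2 change -1.75, SE 0.39). Mx1 and Mx2, genes of the dynamin-like GTPase family, had log2 changes of -1.91 (SE 0.43) and -1.33 (SE 0.28). Mx2 is annotated as a polymorphic pseudogene. Rsad2, which encodes viperin, went from 3807 and 5706 CPM to 1707 and 1848 CPM (log2 change -1.42, SE 0.36), but its call ended without first-dose tumor 2 (-1.13) and without second-dose tumor 1 (-1.38).

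The genes that rose included the regulator Irf7, which amplifies type I interferon. Irf7 went from 132 and 179.5 CPM to 801 and 452 CPM, 4.02-fold higher (log2 change 2.01, SE 0.26, edgeR adjusted p = 0.00066), while with PBS it fell from 26.5 and 30.4 CPM to 6.89 and 6.85 CPM. Oas3, which senses double-stranded RNA and activates RNase L, went from 32.6 and 48.8 CPM to 181 and 246 CPM (log2 change 2.39, SE 0.29). Ifitm3, which blocks virus entry at membranes, went from 393 and 488 CPM to 1765 and 1424 CPM (log2 change 1.85, SE 0.23). In each of these genes both second-dose tumors were above both first-dose tumors. Bst2, also called tetherin, went from 273 and 354 CPM to 946 and 1156 CPM (log2 change 1.74, SE 0.26). Isg15, a ubiquitin-like modifier, went from 285 and 409 CPM to 1072 and 671 CPM (log2 change 1.33, SE 0.23), and without second-dose tumor 1 its change was 0.94 and under the limit on the ratio. Of the other members called higher, Oas2 (log2 change 1.52) lost its call without first-dose tumor 1 (1.32) or second-dose tumor 2 (0.72), and Xaf1 (1.00) without the same tumors (0.84 and 0.90).

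Members that were not called include Usp18, which removes Isg15 from proteins, at 306 and 319.8 CPM and then 391 and 326 CPM. Ifit3, at 1415 and 1935 CPM and then 1126 and 1073 CPM, had a log2 change of -0.61 (SE 0.29, edgeR adjusted p = 0.12). Near-identical pairs such as Ifit3 and Ifit3b share reads that RSEM divides between them, so single members are uncertain. The changes of all these genes with PBS and with CL656 are set side by side in the plot of the interferon and MHC class I lists.

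**Figure D2:**
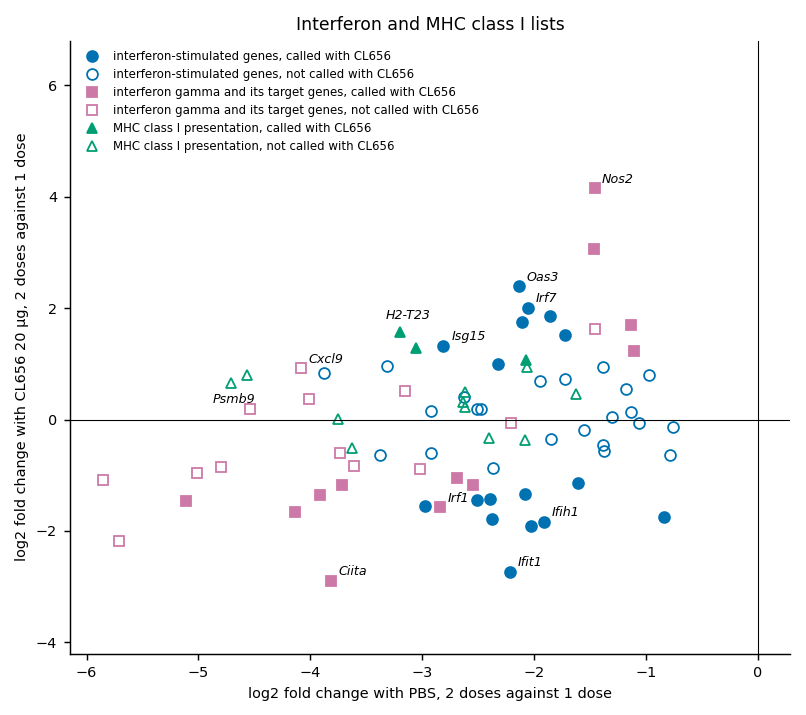
Log2 fold change of 2 doses against 1 dose with PBS (x axis) and with CL656 20 µg (y axis) for each tested gene of 3 lists, filled where the change with CL656 was called. All points lie left of 0 on the x axis, whereas with CL656 Ifit1 (-2.73) and Ciita (-2.90) lie far below 0 and Irf7 (2.01), Oas3 (2.39) and Nos2 (4.16) above it.

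Because members of one response moved in opposite directions, the 150 bases before the start site of 2 genes that rose and 2 that fell are shown, 5′ to 3′ on the gene's strand, from the RefSeq promoter table on GRCm38.p6. Capitals mark matches to GAAANNGAA on either strand (TTCNNTTTC on the other), the core repeat of the interferon-stimulated response element, and neighbouring matches can overlap. Isg15 (chr4:156200819-156200968, minus strand) and Bst2 (chr8:71537473-71537622, minus strand) rose, and Ifit1 (chr19:34640739-34640888, plus strand) and Ifih1 (chr2:62646256-62646405, minus strand) fell.
Isg15: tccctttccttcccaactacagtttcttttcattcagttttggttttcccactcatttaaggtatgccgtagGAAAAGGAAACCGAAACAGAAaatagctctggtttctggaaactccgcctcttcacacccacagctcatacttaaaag
Bst2: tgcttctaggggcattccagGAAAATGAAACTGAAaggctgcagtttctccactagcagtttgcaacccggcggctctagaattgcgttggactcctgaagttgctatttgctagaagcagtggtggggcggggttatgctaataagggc
Ifit1: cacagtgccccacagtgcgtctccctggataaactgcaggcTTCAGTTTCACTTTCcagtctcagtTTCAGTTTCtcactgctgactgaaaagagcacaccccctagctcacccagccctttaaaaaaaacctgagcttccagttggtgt
Ifih1: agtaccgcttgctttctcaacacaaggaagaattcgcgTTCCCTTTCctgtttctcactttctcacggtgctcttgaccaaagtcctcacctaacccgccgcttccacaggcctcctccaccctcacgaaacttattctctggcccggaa
These stretches hold 3, 2, 3 and 1 matches. The 4 genes were picked for this: they were among the listed genes with most matches in these bases in each direction. Their matches were thus set by the choice and say nothing about the 2 directions. A window of 250 bases before to 50 bases after the start was given for 29 of the 40 listed genes, and 17 of the 29 (58.6%) held the motif, against 2812 of all 32851 windows (8.56%). Among the listed genes with a window it was found in 4 of 6 that rose, 4 of 7 that fell and 9 of 16 that were not called with CL656. Over all tested genes with a window it was found in 10.3% of the 1583 that rose, 9.84% of the 793 that fell and 6.89% of the 9507 not called, and with PBS in 57 of the 128 that fell (44.5%). A match is a description of these letters and not a site shown to be bound.

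Some targets of interferon gamma fell and others rose. Of the 25 genes of interferon gamma and its targets, 8 fell and 4 rose (32% and 16%, against 6.36% and 14.4% of all genes), with a median log2 change of -0.85. With PBS 18 fell and none rose, at a median of -3.72. The numbers called each way with CL656 changed with the tumor left out. The median with CL656 was -0.875 and -0.78 without second-dose tumors 1 and 2, and -1.155 and -0.525 without first-dose tumors 1 and 2. Ifng itself, from T and NK cells, was at 1.68 and 11.9 CPM and then 1.02 and 1.88 CPM (log2 change -2.19, SE 0.87, edgeR adjusted p = 0.068, and called without first-dose tumor 1 at -3.04). Irf1, a transcription factor induced early by interferon gamma, went from 892 and 1339 CPM to 446 and 303 CPM (log2 change -1.57, SE 0.29, edgeR adjusted p = 0.0025). The chemokines for CXCR3-bearing T cells diverged in level: Cxcl10 went from 1601 and 2293 CPM to 1111 and 779.6 CPM, and Cxcl9 from 140.3 and 206 CPM to 439 and 219 CPM. The log2 change of Cxcl10 was -1.04 (SE 0.37, edgeR adjusted p = 0.045) and was not called without any one of the 4 tumors (-1.33 to -0.79), and that of Cxcl9 was 0.92 (SE 0.37, edgeR adjusted p = 0.067), called without second-dose tumor 2 (1.28). Cd274, which encodes the checkpoint ligand PD-L1, stood at 229 and 319 CPM and then at 392 and 135 CPM, with the second-dose tumors on either side of the first-dose tumors. Nos2, the inducible nitric oxide synthase of activated myeloid cells, rose from 13.6 and 22.5 CPM to 548 and 96 CPM (log2 change 4.16, SE 0.83), and its change was 2.396 without second-dose tumor 1.

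Of 14 genes of MHC class I presentation, 3 rose and none fell with CL656 (21.4%, against 14.4% of all genes), at a median log2 change of 0.47, while 13 fell with PBS at a median of -2.62. H2-K1, a classical class I heavy chain, stood at 1040.0 and 1429 CPM and then at 3341 and 2640.0 CPM (log2 change 1.28, SE 0.37, edgeR adjusted p = 0.02). B2m, the light chain, went from 1618 and 1862 CPM to 4467 and 2857 CPM (log2 change 1.07, SE 0.30), and H2-T23, a non-classical heavy chain read by NK receptors, from 107 and 188 CPM to 436 and 445 CPM (log2 change 1.58, SE 0.44). In all 3 genes the second-dose tumors were above the first-dose tumors. None of the 3 calls held without first-dose tumor 1 (1.02, 0.93 and 1.18). Those of H2-K1 and B2m ended without second-dose tumor 1 (1.08 and 0.70), as did that of B2m without first-dose tumor 2 (1.15). Psmb9 of the immunoproteasome, at 119 and 193 CPM and then 247 and 246 CPM, and the peptide transporter Tap1, at 370.4 and 479.7 CPM and then 266 and 332 CPM, were not called. Class I heavy chains are close in sequence, so their single counts are uncertain.

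Of 10 genes of MHC class II presentation, 4 fell and 1 rose (40.0% lower, against 6.36% of all genes), at a median of -1.76, or -1.11 without first-dose tumor 2. The PBS tumors had a median of -2.08 with 1 call, lower. H2-Aa, a class II chain of antigen-presenting cells, stood at 85.5 and 213 CPM and then at 44.2 and 20.8 CPM (log2 change -2.21, SE 0.71, edgeR adjusted p = 0.031). Cd74, the invariant chain, went from 164 and 350.2 CPM to 92.2 and 42.9 CPM (log2 change -1.93, SE 0.65, edgeR adjusted p = 0.037). Ciita, the master regulator of the class II genes, is not among these 10. It went from 8.18 and 11.5 CPM to 0.739 and 1.77 CPM (log2 change -2.90, SE 0.86, edgeR adjusted p = 0.022). Without first-dose tumor 2 or without second-dose tumor 2 none of the 10 class II genes was called lower, and the changes were -1.44 and -1.81 for H2-Aa and -1.32 and -1.54 for Cd74. Ciita was not called without first-dose tumor 1 (-3.16), first-dose tumor 2 (-2.66) or second-dose tumor 1 (-2.48). The member that rose was Ctss, a lysosomal protease that also serves other myeloid cells, from 89.6 and 186 CPM to 459 and 247 CPM (log2 change 1.36), and it was not called without first-dose tumor 1 (0.88) or second-dose tumor 1 (0.83).

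Nearly all neutrophil genes rose. Of 19 tested genes, 18 rose and none fell (94.7%, against 14.4% and 6.36% of all genes), with a median log2 change of 4.91, or 4.72 with the gene that was at 0 in both first-dose tumors put at its bound of 3 counts per library. With PBS none was called, and the median was -0.40. The list summed to 102 and 190.3 CPM after 1 dose and to 2275 and 545 CPM after 2, against 16.1 and 17.2 CPM and then 10.5 and 6.96 CPM with PBS. All 19 genes were higher in second-dose tumor 1 than in tumor 2. Without second-dose tumor 1, 14 rose at a median of 3.42, below the 3.88 of the skeletal muscle list in the same fit, and without first-dose tumor 1, 13 rose at a median of 4.34.

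S100a8, a subunit of the neutrophil protein calprotectin, stood at 2.88 and 7.18 CPM after 1 dose and at 249 and 54.3 CPM after 2, a rise of 30.2-fold (log2 change 4.92, SE 0.92, edgeR adjusted p = 0.0026). Its partner S100a9 went from 4.42 and 11.9 CPM to 484 and 107 CPM (log2 change 5.18, SE 1.05). For both genes the lower second-dose tumor was above both first-dose tumors. Ly6g, a surface protein that defines mouse neutrophils, had 3 and 4 counts in the first-dose tumors and 111 and 52 counts in the second-dose tumors. Cxcr2, the chemokine receptor that brings neutrophils into tissue, went from 1.38 and 2.35 CPM to 56.6 and 12.2 CPM (log2 change 4.20, SE 0.88), and was not called without first-dose tumor 1 (3.81), with a change of 2.70 without second-dose tumor 1. Il1b, the inflammasome cytokine, went from 14.3 and 23.4 CPM to 283 and 56.8 CPM (log2 change 3.17, SE 0.73), and was not called without first-dose tumor 1 (2.80) or second-dose tumor 1 (1.58). Clec4d, a C-type lectin of myeloid cells, went from 3.83 and 6.32 CPM to 264 and 60 CPM (log2 change 4.998, SE 0.66). Acod1, which makes itaconate, was the member not called, at 54.2 and 100.4 CPM and then 355 and 115 CPM, and was called without second-dose tumor 2 (2.14).

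**Figure D3:**
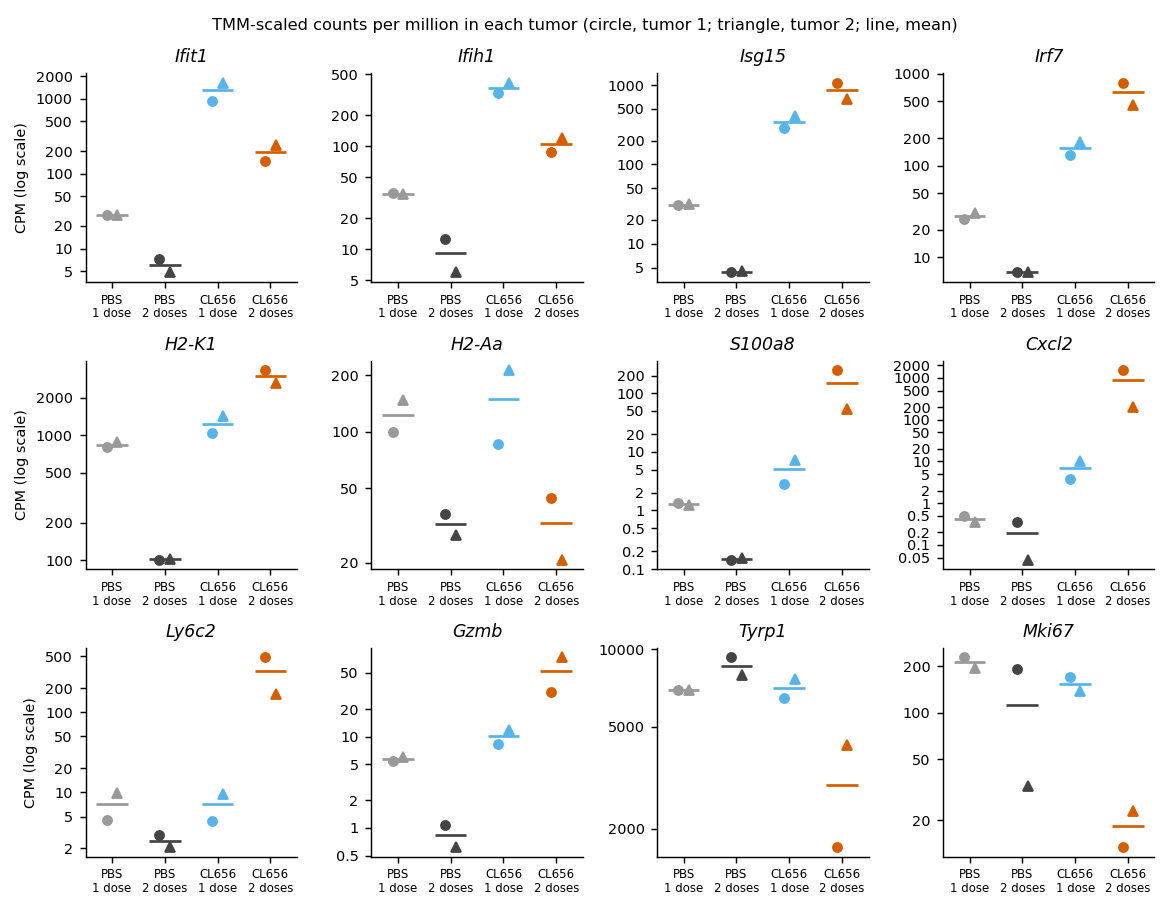
TMM-scaled CPM on a log axis for 12 genes in each of the PBS and CL656 20 µg tumors after 1 and 2 doses (circle, tumor 1; triangle, tumor 2; line, mean of 2). Ifit1 and Ifih1 fell and Isg15 and Irf7 rose with CL656 although all 4 were lower after 2 doses of PBS than after 1, and S100a8, Cxcl2 and Ly6c2 were higher in both second-dose tumors than in any other tumor drawn.

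Monocyte genes moved with them. Of 13 genes, 10 rose and none fell (76.9%, against 14.4% and 6.36%), at a median of 2.29 (PBS -0.69, none called), and 8 rose without second-dose tumor 1. Ly6c2, the marker of inflammatory monocytes, went from 4.45 and 9.67 CPM to 486 and 170.5 CPM, 46.6-fold higher (log2 change 5.54, SE 0.73, edgeR adjusted p = 0.00067). Plac8 went from 17.1 and 21.1 CPM to 1164 and 285 CPM (log2 change 5.25, SE 0.68). Ccr2, the receptor with which monocytes leave the bone marrow, went from 1.88 and 2.85 CPM to 21.6 and 18.7 CPM (log2 change 3.09, SE 0.52), with the second-dose tumors close to each other. Macrophage genes split, with 6 of 22 higher and 4 lower (27.3% and 18.2%, against 14.4% and 6.36% of all genes) at a median of -0.22. Arg1, which depletes arginine and marks suppressive myeloid cells, rose from 7.17 and 6.79 CPM to 416 and 135 CPM (log2 change 5.30, SE 0.75), and Spp1, or osteopontin, from 36 and 38.3 CPM to 448 and 172 CPM (log2 change 3.06, SE 0.46). Adgre1, which encodes F4/80 and marks resident macrophages, was at 14.4 and 35.3 CPM and then at 14.1 and 14.9 CPM (log2 change -0.78, SE 0.47, edgeR adjusted p = 0.21). Cx3cr1, a receptor of resident phagocytes, had 0 and 3 counts in the second-dose tumors. Without second-dose tumor 1, 4 macrophage genes rose and 1 fell, and without first-dose tumor 1, 3 rose and 2 fell. Of 17 dendritic cell genes, 3 rose and 1 fell (17.6% and 5.88%, near the 14.4% and 6.36% of all genes) at a median of -0.0074, and Itgax (CD11c), the member that fell, went from 3.67 and 11.2 CPM to 0.512 and 2.95 CPM and was not called without first-dose tumor 2 (-1.02) or second-dose tumor 1 (-1.34). Its change was -3.91 without second-dose tumor 2.

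Many chemokines and inflammatory cytokines rose. With PBS, 1 of 32 chemokines and inflammatory cytokines fell and none rose, at a median of -0.51. With CL656, 18 rose and 1 fell (56.2% and 3.12%, against 14.4% and 6.36% of all genes), at a median of 2.15. The list summed to 348 and 665 CPM after 1 dose and to 5494 and 1181 CPM after 2, and 29 of the 32 were higher in second-dose tumor 1 than in tumor 2. The number that rose was 8 without second-dose tumor 1 (median 0.94), 6 without first-dose tumor 1 and 24 without second-dose tumor 2. Cxcl2, a ligand of CXCR2, went from 3.85 and 10.2 CPM to 1553 and 206 CPM (log2 change 6.97, SE 1.07, edgeR adjusted p = 0.0011), and Cxcl3, another such ligand, from 0.4 and 0.699 CPM to 535 and 72 CPM (log2 change 9.11, SE 1.14, edgeR adjusted p = 0.00054). Their calls held without any single tumor given CL656. Cxcl1, also a ligand of that receptor, was at 6.8 and 17 CPM and then at 44.8 and 6.58 CPM, high in second-dose tumor 1 alone (log2 change 1.10, SE 0.77, edgeR adjusted p = 0.28), and its change was -0.87 without that tumor and 1.855 and called without tumor 2. Osm, an IL-6 family cytokine of myeloid cells, went from 1.77 and 3.47 CPM to 148 and 25.8 CPM (log2 change 5.05, SE 0.83, or 3.29 without second-dose tumor 1). The monocyte chemokine Ccl2 went from 66 and 98.7 CPM to 426 and 152 CPM (log2 change 1.81) and Ccl3 from 17.4 and 44.8 CPM to 498 and 78.2 CPM (3.21). Neither was called without second-dose tumor 1 (0.86 and 1.32) or first-dose tumor 1 (1.49 and 2.62). Tnfsf10, the interferon-induced death ligand TRAIL, was the member that fell, from 33 and 34.2 CPM to 6.71 and 10 CPM (log2 change -1.996, SE 0.31), and it fell with PBS as well. Tnf was at 8.05 and 25.6 CPM and then at 10.1 and 4.32 CPM (log2 change -1.24, SE 0.55, edgeR adjusted p = 0.095, and called without first-dose tumor 1 at -1.90 and without second-dose tumor 1 at -1.97).

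Genes of matrix remodelling and wound response had a similar shape across the tumors, with 17 of 25 higher and none lower (68.0%, against 14.4% and 6.36%) at a median of 2.98 (PBS -0.34, none called) and 23 of 25 higher in second-dose tumor 1 than in tumor 2. Without second-dose tumor 1, 15 rose at a median of 1.54. Mmp3, which encodes stromelysin, went from 4.17 and 3.38 CPM to 357 and 77.3 CPM (log2 change 5.84, SE 0.68, edgeR adjusted p = 0.00044). Ptges, the last enzyme of prostaglandin E synthesis, went from 1.38 and 1.65 CPM to 320.1 and 43.8 CPM (log2 change 6.91, SE 0.87). The iron-binding protein Lcn2 (5.47, SE 0.79), the activin subunit Inhba (5.602, SE 0.86) and the protease inhibitor Timp1 (3.24, SE 0.52) rose as well on the log2 scale, with 1.76 for Timp1 without second-dose tumor 1. Each of these 5 genes was higher in both second-dose tumors than in both first-dose tumors.

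**Figure D4:**
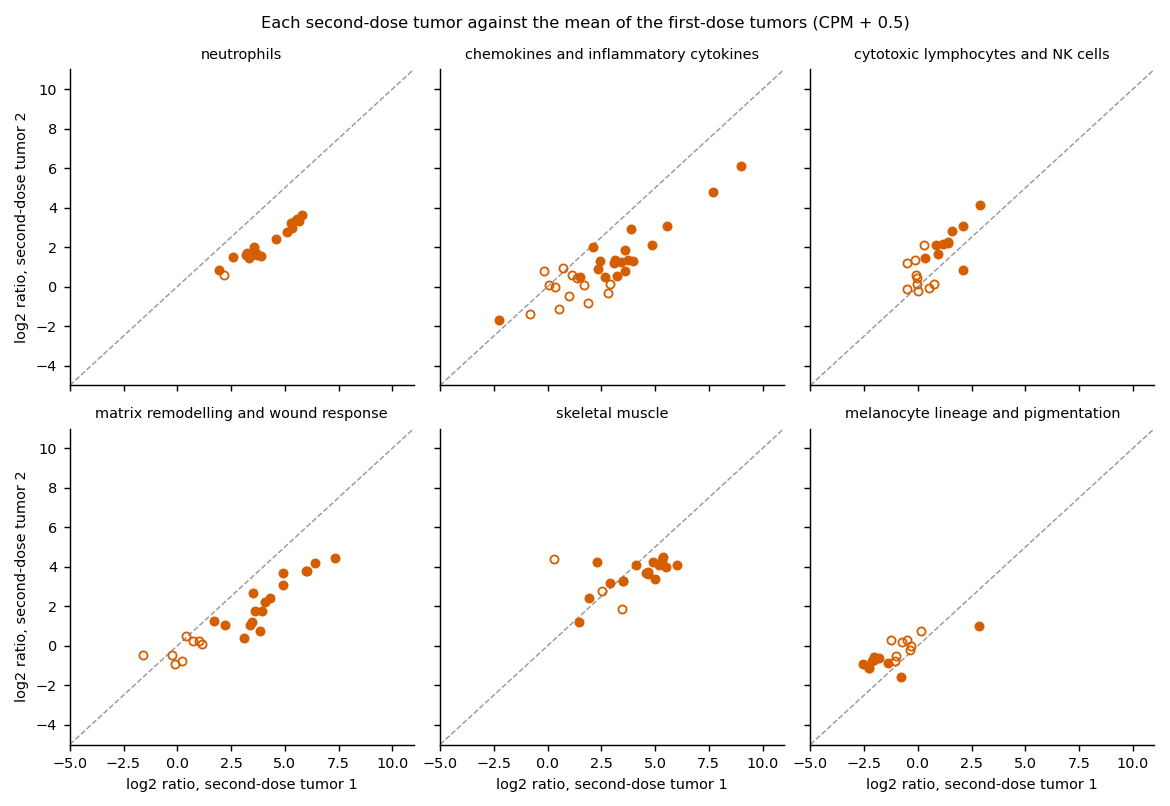
Log2 ratio of each second-dose tumor to the mean of the first-dose tumors, with 0.5 CPM added, for the genes of 6 lists (x axis, second-dose tumor 1; y axis, second-dose tumor 2; dashed line, equal ratios; filled, called). All 19 neutrophil genes lie below the line, and 4 of 20 cytotoxic lymphocyte and NK cell genes and 2 of 18 melanocyte genes do.

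Several cytotoxic genes rose, while most of the genes that define T cells were not called. Of 20 genes of cytotoxic lymphocytes and NK cells, 10 rose and none fell (50%, against 14.4% and 6.36%), at a median of 2.08, against 3 lower with PBS at a median of -1.49. Unlike in the neutrophil, chemokine and matrix lists, 16 of the 20 were higher in second-dose tumor 2 than in tumor 1. Their sum was the other way round, at 161 and 247 CPM after 1 dose and at 855 and 534 CPM in second-dose tumors 1 and 2, and was led by Ccl5, a chemokine of T cells, NK cells and macrophages, at 752 and 309.5 CPM in those tumors. The number that rose was 12 without second-dose tumor 1 and 5 without first-dose tumor 1. Gzma, a granule protease, went from 1.82 and 4.89 CPM to 27.7 and 68 CPM (log2 change 3.84, SE 0.62, edgeR adjusted p = 0.0013), and Gzmb, another one, from 8.25 and 11.8 CPM to 30.8 and 73.5 CPM (log2 change 2.38, SE 0.48, edgeR adjusted p = 0.0036, or 1.56 without second-dose tumor 2). Prf1, which encodes the pore protein perforin, went from 3.7 and 3.16 CPM to 16.4 and 32.7 CPM (log2 change 2.84, SE 0.47). Klrb1c, the NK cell marker NK1.1, went from 0.2 and 0.196 CPM to 0.739 and 2.52 CPM (log2 change 3.08, SE 0.79), and was not called without first-dose tumor 1 (3.06), first-dose tumor 2 (3.04) or second-dose tumor 2 (1.83).

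Of 24 T cell genes, 2 rose, 1 fell and 21 were not called (8.33% and 4.17%, against 14.4% and 6.36% of all genes), at a median of 0.31. With PBS 2 fell and none rose, at a median of -1.62. Tested against PBS, 8 of the 24 (33.3%, against 11.7% of all genes) had the more positive change with CL656 and none the more negative one. Among those that rose with CL656 was Il7r, the IL-7 receptor, which is also made by cells other than T cells, from 2.52 and 3.13 CPM to 52.4 and 19.3 CPM (log2 change 3.66, SE 0.51). Cd8a, the coreceptor of cytotoxic T cells, was at 1.98 and 2.24 CPM and then at 2.05 and 2.12 CPM (log2 change -0.01, SE 0.73), and Cd3e of the T cell receptor complex at 0.525 and 0.923 CPM and then at 1.14 and 0.564 CPM (log2 change 0.19, SE 0.60). Their SEs leave room for changes of more than 2-fold in either direction. Tcf7, the transcription factor of naive and stem-like T cells, fell from 12.1 and 16.4 CPM to 6.08 and 6.07 CPM (log2 change -1.23, SE 0.21, edgeR adjusted p = 0.0018). It was at 16.3 and 16.4 CPM after 1 dose of PBS and 7.73 and 9.81 CPM after 2 (log2 change -0.90, SE 0.21, edgeR adjusted p = 0.068). The change of Tcf7 with CL656 was not called different from that with PBS (difference -0.33, SE 0.29, edgeR adjusted p = 0.43). Tbx21, the Th1 transcription factor T-bet, was at 0.525 and 0.419 CPM and then at 0.455 and 0.564 CPM. Of 12 checkpoint receptor genes, 5 rose and none fell (41.7%, against 14.4% and 6.36%), at a median of 1.03, and 3 rose without first-dose tumor 1. With PBS 1 of the 12 fell and none rose, at a median of -1.15, and 6 of the 12 (50%, against 11.7% of all genes) had the more positive change with CL656. Tnfrsf9, the costimulatory receptor 4-1BB, rose with CL656 from 11.7 and 11.3 CPM to 151 and 141 CPM, nearly alike in the 2 tumors of each group (log2 change 3.67, SE 0.51). Pdcd1, the receptor PD-1, was at 1.6 and 2.4 CPM and then at 0.512 and 1.53 CPM, and was called lower only without second-dose tumor 2 (-2.02).

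Part of the melanocyte and cell cycle genes fell. Of 18 genes of melanocyte lineage and pigmentation, 9 fell and 1 rose (50% lower, against 6.36%), at a median of -0.995, with no call and a median of 0.18 with PBS. The list summed to 33783 and 32702 CPM after 1 dose and to 10956 and 19946 CPM after 2. The number that fell was 3 without second-dose tumor 1, at a median of -0.61, and 6 without first-dose tumor 1. Pmel, which builds the fibrils of melanosomes, went from 6292 and 5885 CPM to 1278 and 2836 CPM (log2 change -1.56, SE 0.28, edgeR adjusted p = 0.002), and Oca2, a melanosome channel protein, from 96.7 and 101 CPM to 20.3 and 44.5 CPM (log2 change -1.60, SE 0.27). Tyrp1, a melanin synthesis enzyme, went from 6448 and 7648 CPM to 1701 and 4232 CPM (log2 change -1.25, SE 0.30) and was not called without second-dose tumor 1 (-0.75), with a change of -2.11 without second-dose tumor 2. Dct, the enzyme that contains the Trp2 antigen, went from 7663 and 7259 CPM to 3592 and 4361 CPM, which passed the adjusted p (0.00079 with edgeR) and not the ratio (log2 change -0.91, SE 0.12) except without second-dose tumor 2 (-1.11). Mlana, the antigen Melan-A, was at 672 and 699 CPM and then 535 and 596 CPM (log2 change -0.28, SE 0.12, edgeR adjusted p = 0.087).

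Of 27 cell cycle genes, 8 fell and none rose (29.6% lower, against 6.36%), at a median of -0.97, with no call and a median of 0.20 with PBS. The count was 13 lower and 1 higher without second-dose tumor 2. Mki67, the proliferation antigen Ki-67, went from 169 and 139 CPM to 13.4 and 23.1 CPM (log2 change -3.06, SE 0.64, edgeR adjusted p = 0.0041). After PBS it was at 229 and 196 CPM and then at 192 and 33.5 CPM, so it was also low in 1 of the PBS tumors after 2 doses. Top2a, a topoisomerase of dividing cells, went from 446 and 396 CPM to 58.6 and 159 CPM (log2 change -1.95, SE 0.40), and the mitotic genes Ccnb1 and Bub1 had log2 changes of -1.29 (SE 0.18) and -1.29 (SE 0.25). Pcna, a clamp of DNA replication, was at 415 and 546 CPM and then at 374 and 312 CPM (log2 change -0.49, SE 0.19, edgeR adjusted p = 0.062).

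Many stromal genes rose. Of 22 fibroblast and pericyte genes, 14 rose and none fell (63.6%, against 14.4%), at a median of 1.51, with no call and a median of 0.09 with PBS, and between 10 and 14 rose when any one tumor given CL656 was left out. Dcn, the matrix proteoglycan decorin, went from 16.1 and 17.6 CPM to 1255 and 185 CPM (log2 change 5.42, SE 0.84, or 3.44 without second-dose tumor 1), and Pdgfra, a growth factor receptor of fibroblasts, from 1.4 and 0.979 CPM to 49.5 and 23 CPM (log2 change 4.92, SE 0.58, edgeR adjusted p = 0.00045). Of 22 endothelial genes, 12 rose and 2 fell (54.5% and 9.09%, against 14.4% and 6.36%), at a median of 1.08, with a median of 0.02 and no call with PBS. This list summed to 469 and 467 CPM after 1 dose of PBS and to 434 and 500 CPM after 2. In the tumors given CL656 it was 409 and 441 CPM and then 460 and 489 CPM, so the second-dose sums lay within the PBS range. Egfl7, a protein secreted by endothelium, went from 12.8 and 11.7 CPM to 36.3 and 41.3 CPM (log2 change 1.67, SE 0.15, edgeR adjusted p = 0.00022). Pecam1, the junction protein CD31, went from 11.4 and 13.7 CPM to 22.1 and 39.1 CPM (log2 change 1.29, SE 0.26), but lay between 26.1 and 33.5 CPM in the PBS tumors, so the first-dose tumors were below them. Without second-dose tumor 2 its change was 0.76 and not called. Selp, or P-selectin, one of the members that fell, went from 3.58 and 5.2 CPM to 1.19 and 0.752 CPM (log2 change -2.21, SE 0.66), and its call ended without first-dose tumor 2 (-1.95), second-dose tumor 1 (-2.55) or second-dose tumor 2 (-1.93).

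Skeletal muscle genes rose beside the stroma, with 17 of 20 higher and none lower (85.0%, against 14.4% and 6.36%) at a median of 4.28. With PBS none was called, at a median of 1.02. Without first-dose tumor 1, 6 of the 20 rose, at a median of 3.70. Des, the muscle intermediate filament desmin, went from 11.6 and 40.9 CPM to 1082 and 534 CPM (log2 change 4.95, SE 0.78). Ryr1, the calcium release channel of muscle, went from 2.42 and 5.2 CPM to 74.4 and 73.6 CPM (log2 change 4.28, SE 0.56, edgeR adjusted p = 0.00067). Both genes were higher in both second-dose tumors than in every other tumor given CL656 or PBS. None of 20 keratinocyte genes was called, and Krt14, a basal keratin of skin, was at 4.7 and 0.447 CPM and then at 12.3 and 0.591 CPM with CL656 and went from 88.1 and 47.7 CPM to 0.144 and 0 CPM with PBS. Of the 12 adipocyte genes tested 2 rose and 1 fell (16.7% and 8.33%), of 6 red blood cell genes 1 fell (16.7%) and of 6 B cell genes 1 rose (16.7%), counts of 1 or 2 genes that do not set these lists apart from the 14.4% and 6.36% of all genes.

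Of 18 stress response genes, 6 rose and 1 fell (33.3% and 5.56%, against 14.4% and 6.36% of all genes) at a median of 0.19, with Hmox1, which degrades heme, going from 135 and 109.5 CPM to 1144 and 482 CPM (log2 change 2.73, SE 0.39) and Ddit3, the unfolded protein response factor CHOP, from 54.8 and 65.1 CPM to 189.6 and 170.4 CPM (log2 change 1.59, SE 0.29). Without second-dose tumor 1, 5 of these genes rose and 3 fell. Of 21 hypoxia and glycolysis genes, 5 rose and none fell (23.8%) at a median of 0.52, among them Egln3, an oxygen sensor, from 4.58 and 2.91 CPM to 117 and 25.2 CPM (log2 change 4.25, SE 0.66, or 2.74 without second-dose tumor 1). Ndrg1, another hypoxia target, went from 56.3 and 50.1 CPM to 612 and 175 CPM (log2 change 2.88, SE 0.47, or 1.70 without second-dose tumor 1). Of 20 cell death genes, 6 rose and 1 fell (30% and 5%) at a median of 0.66, and without second-dose tumor 1 or first-dose tumor 1 the number that rose was 1 and 0. Nlrp3, the inflammasome sensor, went from 4.22 and 7.13 CPM to 71.4 and 15.9 CPM (log2 change 2.94, SE 0.69), and was not called without second-dose tumor 1 (1.47) or first-dose tumor 1 (2.55).

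The genes of smallest p among those whose groups did not overlap were led by 2 genes of muscle. Ankrd23, a protein of the muscle sarcomere, went from 4.53 and 7.91 CPM to 96.8 and 87 CPM (log2 change 3.89, SE 0.27, edgeR adjusted p = 8.9e-05), and Hspb6, a small heat shock protein abundant in muscle, from 6.25 and 9.28 CPM to 71.4 and 66.3 CPM (log2 change 3.15, SE 0.24, edgeR adjusted p = 9.3e-05). After Egfl7, the next that rose were Tacc2 (log2 change 1.94), Tmem119 (4.15), Tfpi2 (4.92), the lipocalin Apod (3.51), the matrix peroxidase Pxdn (2.30), the platelet chemokine Pf4 (3.18) and Thap3 (1.55). Those that fell were led by the zinc finger gene Zbtb5, from 69.1 and 79.7 CPM to 19.3 and 20.7 CPM (log2 change -1.89, SE 0.15, edgeR adjusted p = 0.00014). With PBS Zbtb5 was at 22.7 and 24.1 CPM and then at 20.7 and 24.6 CPM, so after the second dose of CL656 it stood at the PBS level. The next that fell were the antiviral zinc finger protein Zc3hav1 (log2 change -1.41), the aminopeptidase Enpep (-2.13), Tiam2 (-1.97), Cpne4 (-1.99), Wdr62 (-1.71), Fam84b (-1.54), the prostaglandin D synthase Ptgds (-1.79), the cell cycle inhibitor Cdkn2c (-1.19) and Plekhf2 (-1.44). Each of these 20 genes kept its call without any single tumor given CL656.

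The change with CL656 was then tested against the change with PBS. It differed at 2848 genes (16.8%), with 1975 (11.7%) more positive and 873 (5.16%) more negative with CL656, and 2116 of the 3521 genes called with CL656 were among them (60.1%). Fitted on these 4 groups alone the count was 1179, and it was 1399 without first-dose tumor 1, 5661 without second-dose tumor 2, and 1756 and 1330 without PBS first-dose tumors 1 and 2. Of the 40 interferon-stimulated genes, 25 differed, all with the more positive change under CL656, and so did 19 of 25 interferon gamma targets and 13 of 14 MHC class I genes. Isg15 fell from 30.8 and 31.7 CPM to 4.35 and 4.51 CPM with PBS, so its log2 changes differed by 4.15 (SE 0.34, edgeR adjusted p = 0.00035). Oasl2 had no call with CL656, at 246 and 306 CPM and then 287 and 329 CPM, and fell from 37.3 and 36.2 CPM to 5.07 and 4.62 CPM with PBS, a difference of 3.08 (SE 0.26). For Irf7 the difference was 4.06, for Ifitm3 3.71, for Phf11d 4.17, for H2-K1 4.33 and for Cxcl9 5.002. These differences thus contain the fall with PBS as well as the change with CL656. Of 27 cell cycle genes, 14 had the more negative change with CL656, and of 18 melanocyte genes 9 did.

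The closest treatment was exoCL656 on the same schedule, at another amount of agonist (0.1 µg against 20 µg), so agonist amount and carrier cannot be told apart. The change with CL656 differed from that with exoCL656 at 1407 genes (8.31%), 904 (5.34%) more positive and 503 (2.97%) more negative. This count rests on the shared spread and on single tumors. A fit of the 4 groups alone gave 0 genes with edgeR, with 3574 at an unadjusted p under 0.05, against 1352 genes called by DESeq2. Without exoCL656 first-dose tumor 1 it was 5, without exoCL656 second-dose tumor 1 51, and without CL656 first-dose tumor 1 46. It was 633 and 4847 without CL656 second-dose tumors 1 and 2, and 339 and 199 without exoCL656 first-dose tumor 2 and second-dose tumor 2. Of 19 neutrophil genes 14 had the more positive change with free CL656, as did 15 of 32 chemokines and 15 of 25 matrix genes. So did 13 of 20 skeletal muscle genes (65%, against 5.34% of all genes). Their median difference of 4.71 was above the 4.34 of the neutrophil genes. S100a8 went from 13.6 and 8.36 CPM to 11.8 and 3.31 CPM with exoCL656 and Cxcl3 from 1.98 and 2.42 CPM to 7.73 and 2.36 CPM, differences of 5.46 (SE 1.19, edgeR adjusted p = 0.024) and 7.92 (SE 1.33, edgeR adjusted p = 0.014). Of 24 T cell genes 5 had the more negative change with free CL656 and 2 the more positive one, and 5 of 10 MHC class II genes had the more negative one. Cd8a went from 0.18 and 0.929 CPM to 12.1 and 9.7 CPM with exoCL656, a difference of -4.32 (SE 1.07, edgeR adjusted p = 0.032), and H2-Aa from 46.5 and 55.4 CPM to 314 and 74.2 CPM, a difference of -4.14 (SE 1.00, edgeR adjusted p = 0.03). Gzmb was higher after 2 doses under both, going from 7.96 and 10.4 CPM to 124 and 60 CPM with exoCL656, and its difference of -0.95 (SE 0.65, edgeR adjusted p = 0.34) was not called except without CL656 second-dose tumor 2 (-1.73). Each of these 4 calls ended in at least 2 of the fits that left out a tumor of the 4 groups, with differences of 4.01 to 6.61 for S100a8, 7.54 to 8.03 for Cxcl3, -4.49 to -3.58 for Cd8a and -4.66 to -2.78 for H2-Aa in those fits. Cell cycle genes had no call in this comparison, at a median difference of -0.07.

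**Figure D5:**
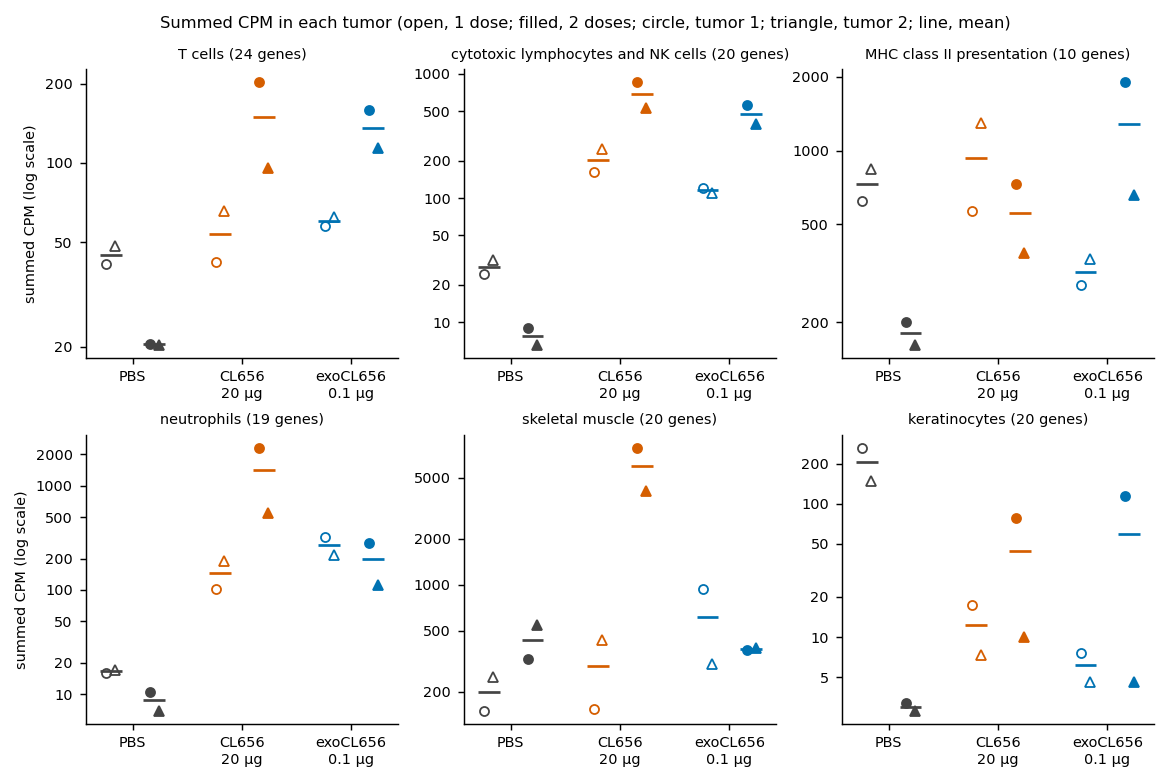
Summed CPM on a log axis of 6 gene lists in each tumor given PBS, CL656 20 µg or exoCL656 0.1 µg (open, 1 dose; filled, 2 doses; circle, tumor 1; triangle, tumor 2; line, mean of 2). Neutrophil and skeletal muscle genes were highest in the tumors given 2 doses of CL656, and MHC class II genes in exoCL656 tumor 1 after 2 doses (1893 CPM).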

How the data were processed

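RNA of whole B16F10 tumors was sequenced as paired reads on an Illumina instrument. The authors aligned the reads to GRCm38 (mm10) with OSA in OmicSoft ArraySuite and estimated an expected count for each Ensembl gene with RSEM, which divides reads shared by near-identical genes. These expected counts were deposited without normalization, 1 value per gene and tumor, and between 8.753% and 12.68% of the values were not whole. Strand use in counting is not given in the sources used here.

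The expected counts were rounded and fitted with edgeR 4.0.16 in R 4.3.3. TMM factors were used, genes were kept by filterByExpr (minimum count 10, minimum total 15; 16927 of 50600 genes), and 1 mean was fitted per group for 16 tumors of 8 groups, which left 8 residual degrees of freedom at a common BCV of 0.22. A gene was called at a Benjamini-Hochberg adjusted p under 0.05 over all tested genes and a ratio over 2. The changes with PBS and with exoCL656 were subtracted as contrasts of the same fit. The 2 tumors whose labels give no amount of CL656 were left out, and so were their 2 columns. Symbols were matched for 50376 of the 50600 Ensembl identifiers (99.56%). CPM are counts scaled to a common library size with TMM factors, and SEs are those of the log2 change in the fit. Promoter sequences are from RefSeq on GRCm38.p6.

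Gene lists of 26 kinds held 518 genes, of which 506 were tested, and were described by counts of calls and medians, with no set test. The genes named are the 10 of smallest p each way whose groups did not overlap, those of smallest p for each difference of changes, the key members of each list whatever their values, and at most 3 more called members of a list each way. The comparison was proposed, and the lists and the rule were chosen, with earlier results of these data known, while tumors were grouped by their labels alone. Alternatives were DESeq2 1.42.0, its size factors, no filter on low counts, the groups of a comparison alone, a replicate block, counts thinned to the shallowest tumor, no limit on the ratio, and leaving out each tumor. On simulated data with 200 of 16458 genes changed 4-fold after the second dose of CL656, edgeR called 177 of them and 10 unchanged genes. Apart from those changes, each simulated gene had the same mean and spread in every group. The larger spread between the second-dose tumors of the data was thus not simulated, and these numbers do not cover it. Some genes of the lists are not reported here by name.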

Additional observations from a re-analysis of the deposited data

Results flagged for a closer look

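Groups of 2 tumors allow no test for a single outlying tumor, so the results gathered here are those where the change between doses differed between treatments by a test of the difference itself. The change with free CL656 differed from that with PBS at 2848 genes and from that with exoCL656 at 1407 genes, by edgeR's quasi-likelihood test, adjusted over all genes. The second count is the less stable of both, since it was 0 when only the 4 groups were fitted and 5 without 1 of the exoCL656 tumors.

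Against PBS, the difference of log2 changes was 4.15 for Isg15, 3.08 for Oasl2, 3.71 for Ifitm3, 4.17 for Phf11d and 4.06 for Irf7 among interferon-stimulated genes. It was 5.002 for the chemokine Cxcl9 and 4.33 for the class I heavy chain H2-K1. Larger differences were found for the neutrophil gene S100a8 (8.003), the neutrophil chemokine Cxcl2 (8.02) and the arginase Arg1 (6.56), and Gzmb had 5.12. In the negative direction the differences were -1.61 for the cyclin Ccnb1, -1.56 for Tyrp1, -2.39 for Enpep, -2.11 for Wdr62, -2.33 for Tiam2, -1.84 for Zbtb5 and -1.62 for the dynein chain Dnah7b. The call of Tyrp1 ended without either CL656 first-dose tumor, either PBS first-dose tumor or PBS second-dose tumor 1 (-1.73 to -1.46), and its difference was -2.43 without CL656 second-dose tumor 2. That of Cxcl2 ended without PBS first-dose tumor 1 (7.77).

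Against exoCL656, S100a8 (5.46), Cxcl2 (6.52) and Cxcl3 (7.92) had the more positive change with free CL656, as did Isg15 (1.84). The calls of Cxcl2 (5.80 to 7.80 in those fits) and Isg15 (1.59 to 1.98) each ended in 4 of the 8 fits without 1 tumor, that of S100a8 in 6 and that of Cxcl3 in 2. The same held for Ankrd23 (3.65), Hspb6 (3.16) and Srl (2.79), which are muscle genes, and for Zfp575 (2.35) and Psd (2.76). Of 24 T cell genes, 5 had the more negative change with free CL656, 2 the more positive one and 17 were not called. The differences were -4.32 for Cd8a, -3.28 for Cd3e and -1.07 for Tcf7, -2.33 for Tbx21 of the cytotoxic list, and -4.14 and -3.99 for the class II genes H2-Aa and Cd74. The calls of Cd8a and Cd3e each ended in 6 of the 8 fits without 1 tumor, those of Tbx21 and Tcf7 in 7, and those of H2-Aa and Cd74 in 5. The remaining genes of smallest p in this direction were Kcnj13 (-5.85), Akna (-2.12), Fbrs (-1.64), Prkaa2 (-1.40) and Ptgds (-1.84). The calls of Srl, Zfp575, Psd, Fbrs, Prkaa2 and Ptgds each ended in 1 fit.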

How the results depend on the processing

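With CL656 more genes rose than fell in every setting, but only by little without second-dose tumor 2. With PBS more genes fell than rose in every setting. The excess of more positive changes in CL656 minus PBS was lost without CL656 second-dose tumor 2. That in CL656 minus exoCL656 was lost without the same tumor, without exoCL656 second-dose tumor 2 and without exoCL656 first-dose tumor 1. For 2 doses of CL656 against 1 dose, DESeq2 called 3554 genes, its size factors 3517, no filter 4016, a replicate block 3388 and thinning to 21608858 counts 2977, against 3521. The fit of the groups of a comparison alone gave 629 genes for CL656, 285 for PBS, 1179 for CL656 minus PBS and 0 for CL656 minus exoCL656 (smallest edgeR adjusted p 0.0933, with 3574 genes at an unadjusted p under 0.05 and 1352 called by DESeq2). Without the limit on the ratio 6126 genes were called for CL656. For PBS, DESeq2 called 389 and no filter 766 genes, and for CL656 minus exoCL656 no filter gave 2737. Leaving out 1 tumor gave 1968 to 6054 genes for CL656, 85 to 374 for PBS, 1330 to 5661 for CL656 minus PBS and 5 to 4847 for CL656 minus exoCL656. The cause of these shifts was not tested.

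The replicate numbers were not taken to pair the tumors, since same-numbered tumors deviated together with a correlation of -0.1627 between the CL656 groups, 0.03929 between the PBS groups and 0.05526 between the exoCL656 groups. Over all pairs of groups it ran from -0.1834 to 0.3222, the highest between CL656 and exoCL656 at 2 doses. The block gave 186 genes for PBS, 2648 for CL656 minus PBS and 1039 for CL656 minus exoCL656, and the crossed pairing, added after seeing the data, gave 3472 for CL656.

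Among genes, 7 that were not called for CL656 turned direction in some setting. When 1 tumor was left out, the log2 change ran from -0.87 to 1.87 for Cxcl1, from -0.20 to 0.14 for Tmem173, from -1.03 to 0.46 for Cd274, from -0.14 to 0.05 for Cd8a, from -0.37 to 0.61 for Cd3e, from -0.11 to 0.26 for Tbx21 and from -2.15 to 3.72 for Krt14. Cd8a was at 0.018 with DESeq2 and with its size factors, at 0.002 in the groups alone and at 0.013 after thinning, Tmem173 at -0.047 without the filter, and Tbx21 at -0.35 after thinning. No called gene of the text turned direction. Given their SEs in the Results, the changes of Cd8a and Cd3e with CL656 could not be resolved. What made these SEs large was not tested.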

Other observations

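Levels and medians of the smaller lists were as follows. Of the red blood cell genes, which summed to 1283 and 2921 CPM in the first-dose tumors and to 1139 and 1500.3 CPM in the second-dose tumors, all 6 were higher in second-dose tumor 2 than in tumor 1. After PBS these genes summed to 192 and 144 CPM at 1 dose and to 135.9 and 136.4 CPM at 2. After exoCL656 they summed to 324 and 466 CPM and then to 36.5 and 59.2 CPM. Against exoCL656, 3 of the 6 had the more positive change with free CL656 and none the more negative one (50%, against 5.34% of all genes). The median log2 change of this list was -0.93 with CL656 and -0.29 with PBS. Adipocyte genes had a median of -0.31 with CL656 and 0.97 with PBS, and B cell genes of -0.45 and -0.59.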
